A study of Rattus norvegicus with 9 samples.

Results

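The genes described here are 10 genes of glucose uptake, glycolysis and the hypoxia response, chosen by name for their function: the glucose transporters Slc2a1 and Slc2a3, the hexokinases Hk1 and Hk2, the glycolytic enzymes Aldoa, Pgk1 and Eno2, the lactate dehydrogenase gene Ldha, the growth factor gene Vegfa and the oxygen-sensing transcription factor gene Hif1a. All 10 were on the array. They were read by 13 of its 41012 probes, with 2 probes each for Hk1, Vegfa and Hif1a and 1 for each of the others. All 13 probes stood well above background on all 9 arrays, none was saturated, and all were among the 30321 probes tested.

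The series asked which transcripts respond when silenced neurons become active again. Rat cortical neurons, dissociated from prenatal pups and kept in Neurobasal with either B27 or NS21 as supplement, were used after 11 to 15 days in culture. All groups received 48 h of tetrodotoxin (TTX), a blocker of voltage-gated sodium channels that silences action potentials. The TTX group was taken at the end of that time. The W15 and W45 groups were taken 15 and 45 min after 3 washes with medium free of TTX. Each group had 3 single-colour arrays, named here by group and replicate number. The labels do not say whether replicates were separate cultures or which supplement each received, so p-values measure only the spread between these samples.

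Neurons take up glucose mainly through the transporter encoded by Slc2a3 (GLUT3), while GLUT1 from Slc2a1 serves astrocytes and the blood-brain barrier. Hexokinase traps the sugar as glucose-6-phosphate, glycolysis turns it into pyruvate, and lactate dehydrogenase interconverts pyruvate and lactate. When oxygen is scarce, the HIF-1 alpha protein escapes degradation and, with its partner ARNT, binds a short DNA core near many genes of this pathway and near Vegfa.

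The probe sequences that the results below turn on are printed here from the array files, 5′ to 3′, in the sense of the transcript. The Slc2a3 probe, which gave the largest differences between groups, lies at chr4:159459854-159459913 on the minus strand of rn3, the build named by the file headers. No gene model of that build was used here, so exon and UTR positions are not given for any probe. It is shown in lower case throughout, since no part of it is compared.
Slc2a3: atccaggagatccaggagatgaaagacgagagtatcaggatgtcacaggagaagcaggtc
Hexokinase genes are close relatives, and Hk1 probe 2 resembled the Hk2 probe. Aligned without gaps, Hk1 probe 2 and the Hk2 probe shared 32 of 48 overlapping bases (66.7%), which are in capitals, whereas Hk1 probe 1 shared 20 of 55 (36.4%) with the Hk2 probe. The Hk2 probe lies on the minus strand within chr4:117170976-117172483 of rn3, an interval of 1508 bases for a 60-base probe, and the files give no position for the Hk1 probes.
Hk1 probe 2: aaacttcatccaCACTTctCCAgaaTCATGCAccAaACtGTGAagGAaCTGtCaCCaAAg
Hk2: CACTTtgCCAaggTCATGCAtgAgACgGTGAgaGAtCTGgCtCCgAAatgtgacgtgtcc
The Vegfa probes are shown because they read different stretches of the gene and gave different values. Probe 1 lies within chr9:10525902-10526287 and probe 2 at chr9:10519066-10519125, both on the plus strand of rn3. Probe 2 opens with ATG, in capitals.
Vegfa probe 1: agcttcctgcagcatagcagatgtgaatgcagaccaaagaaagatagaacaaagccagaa
Vegfa probe 2: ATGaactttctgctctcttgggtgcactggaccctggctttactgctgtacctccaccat

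None of the 13 probes passed the test in any comparison. Each probe was fitted with limma over all 9 arrays, and calls were made at 0.05 after Benjamini-Hochberg adjustment over the 30321 probes. At 15 min against TTX, 0 of the 13 probes were called, beside 0.0198% of all probes tested. At 45 min against TTX, 0 of 13 were called, beside 0.191% of all probes, and at 45 min against 15 min, 0 of 13, beside 0.129%. At an unadjusted p under 0.05, 0, 1 and 0 of the 13 probes passed in these comparisons, beside 3.52%, 6.48% and 6.66% of all probes. The median log2 fold change of the 13 probes was 0.03, 0.02 and 0.01, and that of all probes 0.05, 0.05 and 0.00. For 12 of the 13 probes in each comparison, the 95% interval of the difference lay within 1 log2 unit of 0 on either side, and Slc2a3 was the exception each time.

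**Figure D1:**
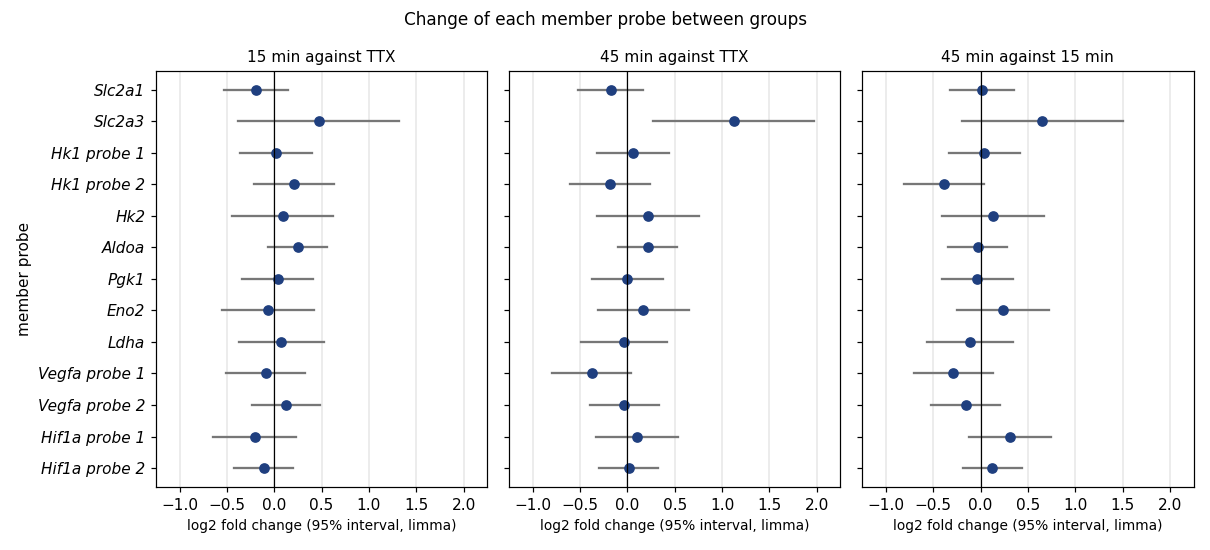
The log2 fold change of each of the 13 probes (dots) is drawn with its 95% interval from limma (lines) for 15 min against TTX, 45 min against TTX and 45 min against 15 min. Most dots lie near 0, and Slc2a3 has the widest intervals and the highest value, 1.12 at 45 min against TTX.

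The same arrays measured a response of other genes. Of 6 genes known to be induced by neuronal activity, 4 were called higher at 15 min against TTX (Npas4, Fos, Junb and Egr1). All 6, with Arc and Nr4a1, were called higher at 45 min. At 15 min Arc and Nr4a1 had log2 fold changes of 1.69 and 0.45 without a call. All 6 genes had an unadjusted limma p under 0.05 there. Npas4 stood well above background on 6 of 9 arrays and was lowest in TTX, so it passed the filter through groups where it was high. Among probes above background on all 9 arrays, 3 of 5 controls were called at 15 min and 5 of 5 at 45 min. Every control tested was above 0 at 15 min in each alternative, but the calls there fell to 0 with slide as a fixed block, to 2 with normexp background correction or without TTX replicate 1, TTX replicate 2 or W15 replicate 2, and to 1 without slide 3, a setting chosen after seeing the data. At 45 min against TTX every control tested was called in each alternative. Fos, an immediate early transcription factor gene, had a log2 fold change of 4.87 ± 0.34 (SE) at 15 min (limma, adjusted p = 0.00187) and 6.61 ± 0.34 at 45 min (adjusted p = 2.21e-05). Between 72.4 and 77.9% of probes stood well above background on each array. Arrays of a group correlated at 0.984 to 0.996, no more closely than arrays of different groups, at 0.985 to 0.996. All 8 neuron markers were tested, and, in multiples of the 75th percentile signal of each array, they summed to 105 to 131 in TTX, 115 to 139 in W15 and 102 to 131 in W45. The 7 astrocyte markers, all tested, summed to 79.5 to 93.0, 81.6 to 90.6 and 72.2 to 96.9, so RNA of astrocytes was present in all groups and these sums overlapped. Sums of linear signals are carried by the brightest probes, for astrocytes mainly that of Slc1a3. Taken gene by gene, 0 markers of either type were called. Their median log2 fold changes at 15 and 45 min against TTX were 0.01 and 0.10 for neurons and -0.05 and -0.13 for astrocytes. In such bulk samples fewer cells of a type and less RNA per cell cannot be told apart.

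Levels below are on a log2 scale on which the 75th percentile of an array's signals is 0. They are compared between arrays for a probe, not between probes.

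**Figure D2:**
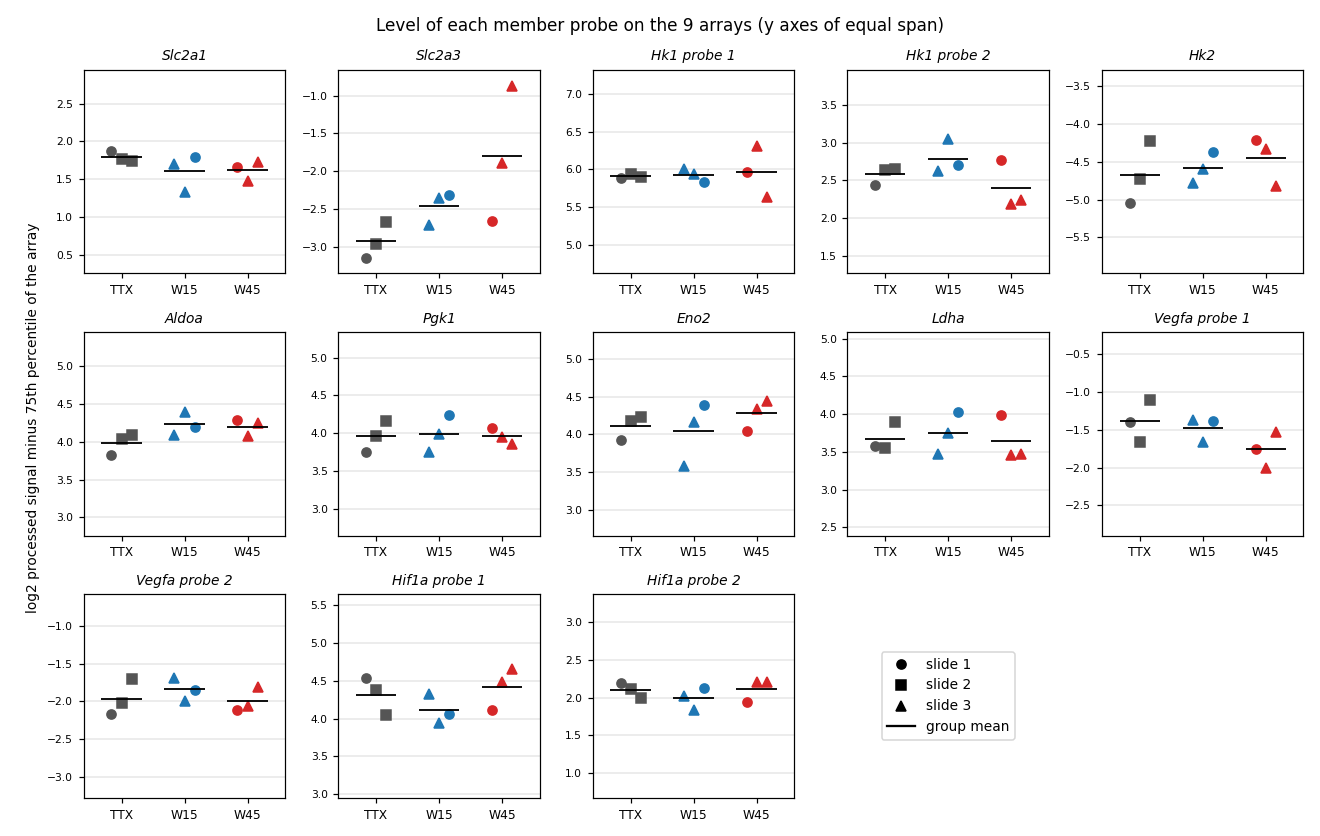
Each panel shows a probe's level on the 9 arrays, on the log2 scale given above, by group. Symbols mark the slide that held the array, black lines are group means, and every panel spans the same number of log2 units. The W45 arrays of Slc2a3 run from -2.66 to -0.87, the widest spread of any group shown.

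Slc2a3 had the largest difference. Its levels were -3.14, -2.97 and -2.67 on the TTX arrays, -2.72, -2.35 and -2.32 on the W15 arrays, and -2.66, -1.89 and -0.87 on the W45 arrays. All W45 arrays lay above all TTX arrays, but W45 replicate 1 did so only narrowly and lay among the W15 arrays, while replicate 3 stood far above the rest. At 45 min against TTX the log2 fold change was 1.12 ± 0.38 (SE, n = 3 arrays a group), or 2.18-fold, with a 95% interval of 0.27 to 1.97 on the log2 scale. The unadjusted limma p was 0.0154 and the adjusted p 0.671. At 15 min against TTX it was 0.47 (limma, adjusted p = 0.973) with overlapping arrays, and at 45 min against 15 min 0.65 (limma, adjusted p = 0.801). Slc2a3 was the 1 probe of the 13 whose W45 arrays all lay above the TTX arrays, an order seen in 8.4% of all probes. Same-numbered W15 and TTX arrays, whose numbers were taken as pairs, differed in Slc2a3 by 0.43, 0.62 and 0.36, and with the pairs as a block the value at 15 min was 0.47 ± 0.27 (SE; limma, adjusted p = 0.854). Slc2a3, Aldoa and Hk1 probe 2 were higher at 15 min in all 3 pairs, as were 25.6% of all probes.

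The value at 45 min rested on W45 replicates 2 and 3. Without replicate 3 it was 0.65, without replicates 2 and 3 together 0.26, and without replicate 1 it was 1.55 (limma, adjusted p = 0.0708). W45 replicates 2 and 3 lay on a slide with W15 replicates 1 and 2, named slide 3 here. Within that slide, 45 min exceeded 15 min by 1.16, whereas on slide 1, which held TTX 1, W15 3 and W45 1, the difference between 45 and 15 min was -0.35 and that between 45 min and TTX 0.48. With the arrays of slide 3 left out, a setting chosen after seeing the data, 45 min against TTX gave 0.26 ± 0.22 (SE; limma, adjusted p = 0.698).

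**Figure D3:**
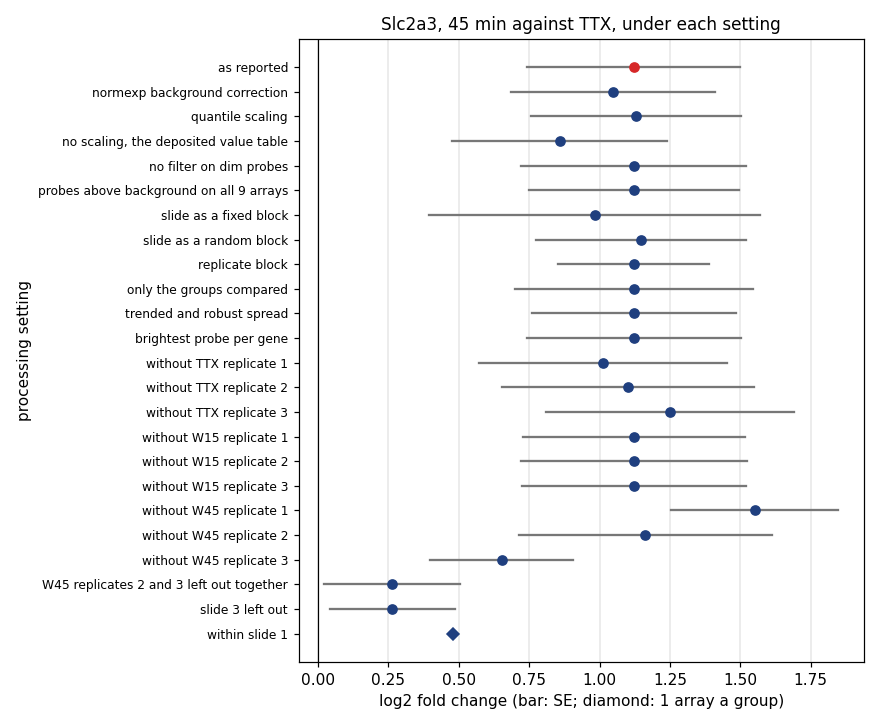
The log2 fold change of Slc2a3 at 45 min against TTX is drawn under each processing setting, with the SE as a bar, and a diamond where a slide gave 1 array a group. All values are above 0, from 0.26 without W45 replicates 2 and 3 to 1.55 without W45 replicate 1.

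The arrays of that slide also differed in a technical measure. The array carries 263 probes in 10 copies, of which 219 stood above background on all arrays, and the spread between copies of a probe measures error within an array. Its median SD was 0.0349 to 0.0562 log2 units on the 5 arrays of the other slides and 0.102 to 0.243 on the 4 arrays of this slide, with the highest values, 0.213 and 0.243, on W45 replicates 2 and 3. Among the genes described here Slc2a1, Pgk1, Ldha, Vegfa probe 1 and Hif1a probe 2 were printed in 10 copies. Their copies had SDs of 0.0157 to 0.0614 on the former arrays and 0.0672 to 0.453 on the latter, so the ranges did not overlap. Slc2a3 was printed as 1 spot, and its own error within an array was not measured. The part of this spread in the Slc2a3 values was not tested.

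**Figure D4:**
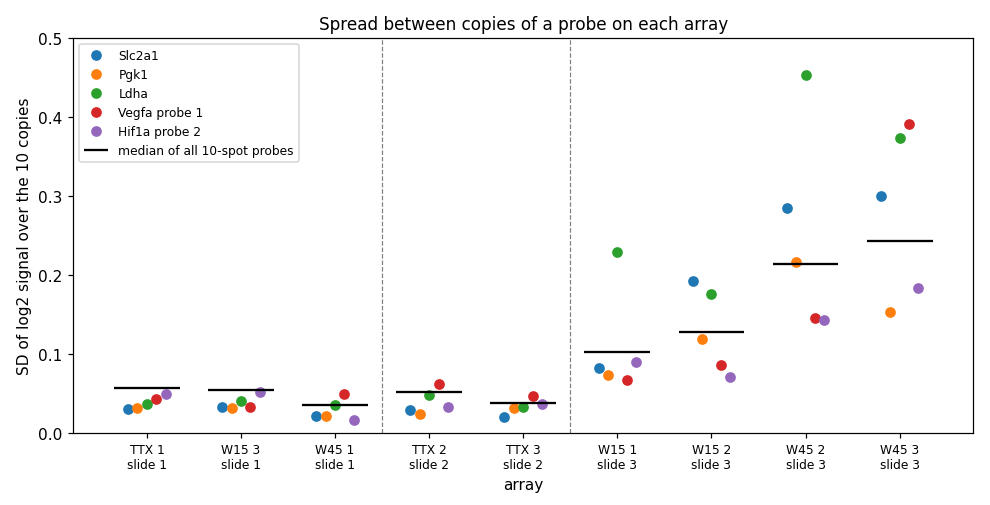
The SD of the log2 signal over the 10 copies of a probe is drawn for each array, ordered by slide, for the 5 probes of these genes that have copies (coloured dots) and as the median over all such probes (black lines). The medians stay at or below 0.0562 on slides 1 and 2 and run from 0.102 to 0.243 on slide 3.

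Slc2a1 lay lower, by small amounts, in both washout groups. Its levels were 1.87, 1.77 and 1.74 in TTX, 1.70, 1.33 and 1.79 in W15 and 1.66, 1.47 and 1.73 in W45. All W45 arrays lay below all TTX arrays, an order seen in 3.52% of all probes, while W15 overlapped TTX. Its log2 fold change was -0.19 ± 0.15 (SE) at 15 min (limma, adjusted p = 0.973) and -0.18 ± 0.15 at 45 min (limma, adjusted p = 0.885). At 45 min its sign held in each alternative, between -0.44 and -0.11.

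Of the hexokinase genes, Hk1 encodes the main form of brain and Hk2 an inducible form that HIF-1 can raise. Hk1 probe 1 read 5.89, 5.94 and 5.90 in TTX, 6.0, 5.94 and 5.84 in W15, and 5.96, 6.30 and 5.64 in W45. Hk1 probe 2 read 2.44, 2.64 and 2.65 in TTX, 2.62, 3.04 and 2.70 in W15, and 2.77, 2.19 and 2.24 in W45. W45 replicate 2 was thus the highest of all arrays on probe 1 and the lowest on probe 2. At 45 min against 15 min probe 2 gave -0.39 ± 0.19 (SE; limma, unadjusted p = 0.0662, adjusted p = 0.770) and probe 1 gave 0.04 ± 0.17 (limma, adjusted p = 0.973). The low W45 values of probe 2 were again those of replicates 2 and 3, and without slide 3 its difference was 0.07. The distance from probe 1 to probe 2 was 2.90 to 3.44 on the TTX and W15 arrays and 3.19, 4.12 and 3.40 on the W45 arrays.

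Hk2 was among the dimmer members, with a median signal of 66.7. It read -5.05, -4.73 and -4.22 in TTX, -4.78, -4.60 and -4.36 in W15, and -4.21, -4.33 and -4.82 in W45, and all groups overlapped. Its log2 fold change was 0.09 ± 0.24 (SE) at 15 min (limma, adjusted p = 0.990) and 0.22 ± 0.24 at 45 min (adjusted p = 0.919).

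The enzymes further along glycolysis lay close together across groups. Aldoa, which encodes the aldolase that splits fructose-1,6-bisphosphate, read 3.82, 4.04 and 4.10 in TTX, 4.09, 4.39 and 4.20 in W15, and 4.28, 4.07 and 4.24 in W45. Both washout groups overlapped TTX at its upper end, with 0.25 ± 0.14 (SE) at 15 min (limma, unadjusted p = 0.108, adjusted p = 0.973) and 0.22 ± 0.14 at 45 min (adjusted p = 0.830). Pgk1, for the first ATP-yielding enzyme of the pathway, ranged over all arrays from 3.74 to 4.24, with group means of 3.96 ± 0.20 (SD, n = 3), 3.99 ± 0.25 and 3.96 ± 0.11 in TTX, W15 and W45. The log2 fold change of Pgk1 at 45 min against TTX was 0.00, with a 95% interval of -0.37 to 0.37.

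Eno2 encodes the enolase typical of neurons. It read 3.92, 4.18 and 4.23 in TTX, 3.58, 4.17 and 4.38 in W15, and 4.05, 4.34 and 4.44 in W45. W15 held both the lowest array of all and an array above every TTX array. Eno2 had log2 fold changes of -0.07 ± 0.21 (SE) at 15 min and 0.17 ± 0.21 at 45 min (limma, adjusted p = 0.992 and 0.931). Ldha read 3.57, 3.55 and 3.89 in TTX, 3.47, 3.75 and 4.03 in W15, and 3.98, 3.45 and 3.48 in W45. Its group means differed by at most 0.11, less than the SD of 0.19 to 0.30 within a group, and the 2 low W45 arrays were replicates 2 and 3.

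Hif1a was read by 2 probes, both of which overlapped in every comparison. Probe 1 read 4.54, 4.37 and 4.05 in TTX, 4.33, 3.94 and 4.06 in W15, and 4.11, 4.49 and 4.66 in W45. Probe 2 read 2.20, 2.12 and 2.0 in TTX, 2.02, 1.84 and 2.13 in W15, and 1.94, 2.21 and 2.21 in W45. On both probes the W15 mean was the lowest and W45 replicates 2 and 3 were above replicate 1. At 15 min against TTX the probes gave -0.21 ± 0.19 and -0.11 ± 0.14 (SE), and at 45 min 0.10 ± 0.19 and 0.02 ± 0.14, with limma adjusted p-values of 0.973, 0.975, 0.953 and 0.992.

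Vegfa, which encodes a secreted growth factor for blood vessels, gave different values on its 2 probes. Probe 1 read -1.39, -1.66 and -1.10 in TTX, -1.37, -1.67 and -1.38 in W15, and -1.75, -2.0 and -1.53 in W45. Probe 2 read -2.17, -2.02 and -1.71 in TTX, -1.69, -1.99 and -1.85 in W15, and -2.12, -2.06 and -1.81 in W45. All groups overlapped on both probes. At 45 min against TTX probe 1 gave -0.38 ± 0.18 (SE; 95% interval -0.79 to 0.04; limma, unadjusted p = 0.0711, adjusted p = 0.776), and probe 2 gave -0.03 ± 0.16 (adjusted p = 0.987). The distance from probe 1 to probe 2 was 0.58 ± 0.20 (SD, n = 3) in TTX, 0.37 ± 0.08 in W15 and 0.24 ± 0.16 in W45. The difference between the probes was not tested.

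TTX replicate 1 was the only TTX array that shared a slide with other groups. It was the lowest TTX array for 8 of the 13 probes (Slc2a3, both Hk1 probes, Hk2, Aldoa, Pgk1, Eno2 and Vegfa probe 2) and the highest for Slc2a1 and both Hif1a probes. Within slide 1, with 1 array a group and no test, 9 of the 13 probes were higher at 15 min than in TTX and 4 were lower. The differences ran from -0.48 for Hif1a probe 1 to 0.83 for Slc2a3, with 0.68 for Hk2, 0.48 for Pgk1, 0.46 for Eno2 and 0.46 for Ldha. At 45 min 9 were again higher and 4 lower, from -0.43 for Hif1a probe 1 and -0.36 for Vegfa probe 1 to 0.84 for Hk2. In the fit over all 9 arrays, 60.5% of all probes lay above 0 at 15 min against TTX and 59.5% at 45 min. The shares of all probes higher within slide 1, or lowest on TTX replicate 1, were not computed. These counts are therefore not read as particular to these genes.

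The promoters of these genes were read for the core that HIF binds, for CACGTG and for the cAMP response element, which the activity-regulated factor CREB binds. RefSeq promoter windows (GRCr8, 300 bases from 250 before to 50 after the start) were given for 8 of the 10 genes, in 12 windows, and not for Slc2a3 and Pgk1. The HIF core, ACGTG or GCGTG on either strand, occurred in 6 of the 12 windows (Slc2a1, Hk1, Aldoa, Eno2, Ldha and Hif1a), and in 41.6% of all 33469 windows. CACGTG, which contains that core, occurred in 2 windows (Ldha and Hif1a) and in 6.42% of all. The cAMP response element TGACGTCA occurred in 1 window, that of Ldha, and in 1.83% of all.

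Slc2a1 and Ldha, both textbook HIF targets, are shown, and their windows held the most matches among these genes. Vegfa is a HIF target too, but neither of its windows held the core, nor did the window of Hk2. Their 250 bases before the start are at chr5:138002272-138002521 and chr1:106507842-106508091 of GRCr8, both on the plus strand, with the core letters in capitals. In Slc2a1 matches began 153, 76, 51 and 16 bases before the start. In Ldha those wholly within these bases began 87, 73 and 14 bases before it, the farthest of them a CACGTG that matches on both strands, and TGACGTCA began 51 bases before it.
Slc2a1: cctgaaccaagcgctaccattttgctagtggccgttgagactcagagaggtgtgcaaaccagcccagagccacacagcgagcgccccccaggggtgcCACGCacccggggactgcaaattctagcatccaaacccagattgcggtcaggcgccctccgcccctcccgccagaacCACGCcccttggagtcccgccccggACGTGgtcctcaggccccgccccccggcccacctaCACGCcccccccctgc
Ldha: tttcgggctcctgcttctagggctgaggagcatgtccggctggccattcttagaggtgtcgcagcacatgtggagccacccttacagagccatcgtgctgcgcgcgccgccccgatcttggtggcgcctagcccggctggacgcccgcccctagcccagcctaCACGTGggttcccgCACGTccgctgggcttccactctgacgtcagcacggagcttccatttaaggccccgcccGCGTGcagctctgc
A match of letters is not a binding site, and neither Slc2a1 nor Ldha passed the test in any comparison.

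Other genes of the same processes were described from 6 lists, and 0 genes of any list were called by limma in any of the 3 comparisons. The lists held 88 different tested genes, each read by its brightest tested probe, while the shares of all probes count every tested probe. Some of these genes, Gpi among them, had further probes, whose values are not given. At an unadjusted p under 0.05, 1 of them (1.14%) passed at 15 min against TTX, beside 3.52% of all probes, 4 (4.55%) at 45 min against TTX, beside 6.48%, and 4 (4.55%) at 45 min against 15 min, beside 6.66%. Of other glycolytic enzymes 17 of 20 were tested. Their median log2 fold change was 0.11 at 15 min and 0.04 at 45 min, and the largest value at 45 min was that of Gpi, glucose-6-phosphate isomerase, with 0.38 ± 0.15 (SE; limma, unadjusted p = 0.0279, adjusted p = 0.739), or 0.16 without slide 3. Other glucose, lactate and pyruvate transporters had 14 of 19 tested, with medians of 0.03 at both times. The largest value among them was that of Slc2a10, a facilitative glucose transporter gene, with 0.81 ± 0.33 at 15 min (limma, adjusted p = 0.973). It rested in part on W15 replicate 1, at -4.55 against -5.26 and -5.60 on the other W15 arrays, and was 0.51 without that array and 0.34 without slide 3. The Slc2a10 probe was dim, with levels of -6.38, -5.45 and -6.0 in TTX.

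The lowest values came from genes that control glucose use, of which 15 of 18 were tested. Their median log2 fold change was 0.01 at 15 min and -0.07 at 45 min. At 45 min against TTX their values ran from -0.91 for Txnip to 0.39 for Pdk3. At an unadjusted limma p under 0.05, 2 genes were lower there and 1 was higher. Txnip encodes an arrestin-like protein that binds thioredoxin and lowers glucose uptake. Its levels were 1.56, 1.59 and 1.61 in TTX, 1.06, 1.73 and 1.48 in W15, and 0.83, 0.73 and 0.46 in W45. All W45 arrays lay below all TTX and W15 arrays, and the gap to TTX exceeded the spread within either group. The log2 fold change at 45 min against TTX was -0.91 ± 0.18 (SE; limma, unadjusted p = 6.28e-04), but the adjusted p over all probes was 0.181. Over the alternatives it lay between -1.18 and -0.71 and was never called, with a lowest adjusted p of 0.0819.

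Pdha1, for a subunit of pyruvate dehydrogenase, read 3.50, 3.71 and 3.75 in TTX, 3.70, 3.62 and 3.51 in W15, and 3.56, 2.37 and 2.53 in W45. W45 replicate 1 lay within the range of TTX and only replicates 2 and 3, of the slide with the larger spread between copies, lay below it. At 45 min against TTX Pdha1 had -0.83 ± 0.27 (SE; limma, adjusted p = 0.650). Without W45 replicate 1 it was -1.20 (limma, adjusted p = 0.0134), and without replicates 2 and 3 it was -0.09. Leaving out W45 replicate 1 raised the calls over the whole array. Of the 30321 probes, 80 were then called higher and 124 lower, beside 52 and 6 with all arrays.

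Among HIF subunits and oxygen-sensing genes, 14 of 14 were tested, with medians of 0.09 at 15 min and 0.04 at 45 min. The largest value at 45 min was 0.29 ± 0.14 for Hif1an (limma, adjusted p = 0.784), which encodes an asparagine hydroxylase that inhibits HIF. It was 0.17 without W45 replicate 3 and 0.15 without slide 3. Other HIF target genes had 25 of 27 tested, with medians of -0.03 and 0.02 and values at 45 min from -0.36 for Ankrd37 to 0.37 for Car9, a carbonic anhydrase gene. Without slide 3 these values were 0.04 for Ankrd37 and -0.14 for Car9. Leaving out W45 replicate 1 gave -0.56 and 0.62, and leaving out TTX replicate 3 gave -0.21 for Ankrd37, while Car9 was 0.16 without TTX replicate 1 and 0.21 without W45 replicate 3. In the VEGF family and its receptors 7 of 9 were tested, with medians of 0.10 and 0.17. The largest value there was 0.73 ± 0.37 at 45 min for Nrp2, a VEGF co-receptor gene (limma, adjusted p = 0.781). It rested on W45 replicate 1, at -3.98 against -5.24 and -5.16 on W45 replicates 2 and 3, and was 0.33 without that array and 1.55 without slide 3.

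**Figure D5:**
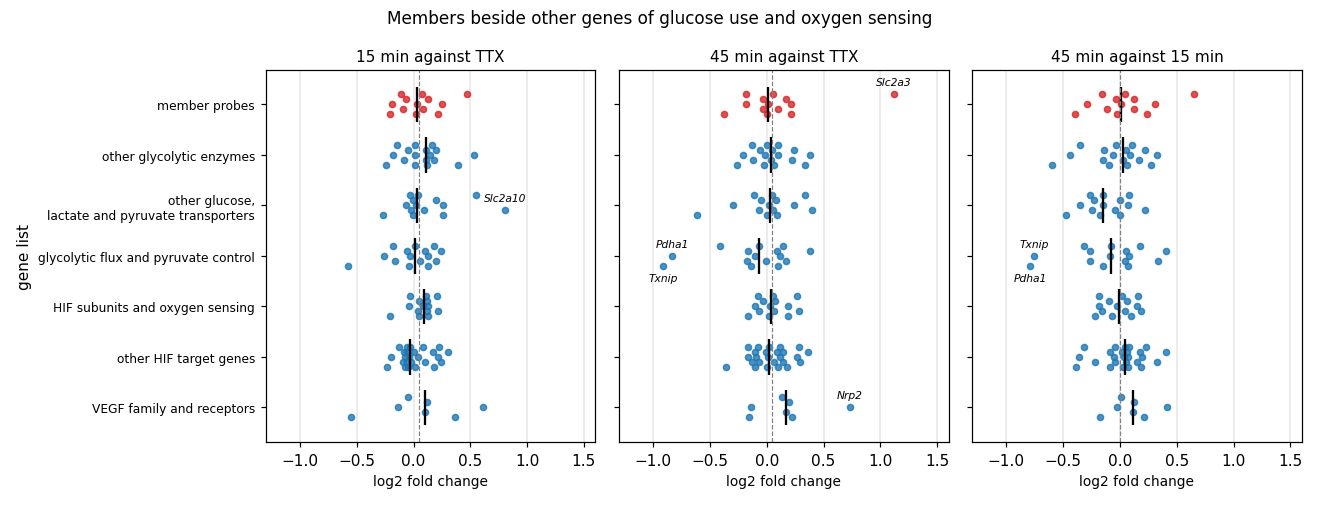
The log2 fold change of each of the 13 probes (red) and of each tested gene of 6 related lists (blue) is drawn for the 3 comparisons, with list medians as black bars and the median of all probes as a dashed line. Genes beyond 0.7 on either side are named; Txnip at -0.91 and Slc2a3 at 1.12 are the extremes at 45 min against TTX.

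The genes most like Slc2a3 were ranked by the root mean square difference of centred log2 levels over the 9 arrays, among 15355 candidates. They were Dusp4, a MAP kinase phosphatase gene, with 0.222, Esam, an endothelial adhesion molecule gene, with 0.267, Map6d1 with 0.289, Mmp28 with 0.290 and Atp2a3 with 0.292. The median candidate had 0.652 and a flat profile 0.645. None of these 5 genes was called at 45 min against TTX, where Dusp4 had 1.13 (limma, adjusted p = 0.181). All 5 were dim, with mean TTX levels from -6.56 for Atp2a3 to -4.49 for Dusp4. With normexp background correction their values at 45 min against TTX ran from 0.54 for Map6d1 to 0.66 for Atp2a3, which had 1.68 in the main fit. Without W45 replicate 1, Dusp4 (1.38), Esam (1.52) and Atp2a3 (2.16) were called, with limma adjusted p-values of 0.0138, 0.0241 and 0.0149, while Slc2a3 in that setting was not. Over the whole array that setting called 80 probes higher and 124 lower. The 5 genes were picked because they matched Slc2a3 on these same arrays, W45 replicates 2 and 3 included. Their calls without W45 replicate 1, and the Esam levels given next, follow in part from that choice. Esam was high on W45 replicates 2 and 3, at -5.11 and -4.45, against -6.42 to -6.04 on the other arrays. Of 7 endothelial markers 4 were tested, with summed signals of 0.0518 to 0.0712 in TTX, 0.0546 to 0.0664 in W15 and 0.0641 to 0.103 in W45. Esam is part of this sum, and at 45 min against TTX the log2 fold changes were 1.0 for Esam, 0.18 for Vwf, 0.10 for Cldn5 and -0.06 for Cdh5. Of the 7 markers, Cdh5, Cldn5, Vwf and Esam stood above background on 9 of 9 arrays, Pecam1 on 5, Tie1 on 1 and Tek on 0. The part of endothelial RNA in the Slc2a3 values was not tested.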

How the data were processed

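The deposited scanner files hold spot intensities of 9 arrays of cultured rat cortical neurons. The array was Agilent's rat design 014879, per the file headers. They name Feature Extraction 9.5.3.1, and the submitters' processing notes name version 9.5. Its processed signal, per the file headers, is an intensity from which background and a spatial trend were removed. The deposited series values hold the same intensities, with a largest difference of 0, and served as the setting without scaling.

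Control and outlier spots were left out. Log2 of the deposited processed signal was taken for each spot and averaged over the spots of a probe. The 75th percentile of these probe values on an array was then subtracted. Tested probes were those well above background on every array of some group. Probes were named through the files and the RefSeq gene names of GRCr8, which gave a symbol to 20100 of 41012 probes. A mean per group was fitted over all 9 arrays with limma 3.58.1 (R 4.3.3, with data.table, version 1.17.8), with 6 residual degrees of freedom before shrinkage, and two-sided p-values were adjusted over all probes (Benjamini-Hochberg). The scripts were checked on simulated data. Figures were drawn with matplotlib 3.10.9 (Python 3.11.15). With 3 arrays against 3, exact permutation p-values start at 0.1, so none were used. The precision is limited by the number of arrays.

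The members, gene lists and tests were chosen with earlier results of these data known. For list genes, controls and cell type markers the brightest tested probe stood for the gene. Named were all member probes, up to 4 genes a list and comparison with the largest changes, of which the text gives the leading ones, the activity-induced controls, and the 5 probes most like Slc2a3, the member with the widest range of group means. Slides were read from the file headers and tested as blocks. Same-numbered arrays of TTX and W15 deviated together (r = 0.310, 0.382 and 0.220 over probes), so the numbers were taken to pair those groups, a pairing that comes from the data and not from the labels. The replicate block changed no call of the 13 member probes or the count of called controls. Slide as a fixed block ended the calls of activity-induced controls at 15 min against TTX, as the results state, while all 6 stayed called at 45 min against TTX.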

Additional observations from a re-analysis of the deposited data

How the results depend on the processing

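The count of called probes among the 13 stayed at 0 in all 3 comparisons under 22 fitted alternatives each: other background correction, scaling and filters, slide as a fixed or random block, the replicate block, only the groups compared, a trended and robust spread, the brightest probe of a gene, each array left out in turn, W45 replicates 2 and 3 left out together and, chosen after seeing the data, slide 3 left out. Leaving out single arrays gave counts between 0 and 0. With the replicate block the counts were 0, 0 and 0, and Slc2a3 at 45 min against TTX had 1.12 with an adjusted p of 0.395 in limma. Same-numbered arrays correlated at 0.232, 0.360 and 0.0984 between TTX and W45 and at 0.0599, 0.170 and 0.162 between W15 and W45. Each exceeded the highest correlation with an array of another number. Those were -0.0172, -0.0975 and -0.0410 between TTX and W45, and -0.00572, 0.0199 and -0.0736 between W15 and W45. The numbers may thus pair all groups, which the replicate block allows for and the main fit does not. The lowest adjusted p over all alternatives was 0.542 at 15 min against TTX, 0.0708 at 45 min against TTX and 0.158 at 45 min against 15 min. Of the 849 tested values of single probes under other settings, 0 were called. Scaling and background alternatives move many probes together, and 30 of 117 values changed sign there. Among the other settings, within-slide values included, 84 of 784 did. Other background correction (normexp) moved the median of all probes to 0.20, 0.13 and -0.19, and no scaling moved it to -0.16, -0.22 and -0.05. The sign of a difference of that size can therefore depend on these settings, although that of Slc2a1 against TTX held at both times. With slide as a fixed block the probes called over the whole array fell from 6 to 0 at 15 min against TTX, and the called controls from 4 to 0 there and from 4 to 3 at 45 min against 15 min. With slide 3 left out, 1, 6 and 0 controls were called in the 3 comparisons. With slide as a fixed block the member median was 0.26 at 15 min and 0.11 at 45 min, against 0.04 and 0.02 for all probes, and these values rest on TTX replicate 1. The number of arrays, 3 a group, limits the precision, and the 95% intervals, which are not adjusted for the number of probes, reach 1.97 on the log2 scale for Slc2a3. Without slide 3, W15 and W45 keep 1 array each, which is assumed to vary like the TTX arrays.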
